A study of Mus musculus with 17 samples.

Results

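Macrophages sorted from wild-type mouse spleen were compared with the myelo-dendritic progenitors (MDPs) of wild-type bone marrow, over every gene that the array names. The comparison took the 3 arrays titled as macrophage pools and the 3 titled as wild-type MDP pools, 6 of the 17 arrays in the series, and tested 17097 genes. The macrophages were sorted as CD11c-negative, CD11b-positive and M-CSF receptor-positive spleen cells. The MDPs were sorted as bone marrow cells lacking lineage markers, Sca1 and CD127 and bearing CD117 and the M-CSF receptor. Both groups carry the wild-type genotype, came from mice 6 to 10 weeks old and had no treatment named in the labels, and each array held RNA pooled from 5 mice. Spleen granulocytes of wild-type mice, sorted for Ly6C and CD11b but lacking CD11c and the M-CSF receptor (3 pools of 5 mice), served as another mature population from the same organ. The study used mature populations to define lineage signatures by which gene changes in IRF8-deficient MDPs were sorted. Tissue and cell type change together here: a difference between spleen macrophages and marrow MDPs cannot be told apart from a difference between spleen and bone marrow.

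MDPs are bone marrow progenitors that divide and give rise to monocytes, macrophages and dendritic cells. Macrophages and monocytes engulf particles and dying cells through Fc, complement and scavenger receptors, digest them in lysosomes, sense microbes through Toll-like receptors and present peptides on MHC class II. In the spleen, red pulp macrophages recycle iron from aged red cells, marginal zone macrophages capture particles from the blood, and monocytes are kept in reserve.

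Of 17097 genes, 1949 (11.4%) were higher and 2089 (12.2%) were lower in spleen macrophages than in wild-type MDPs, at an adjusted p under 0.05 in limma's moderated test with the Benjamini-Hochberg method. In either direction that is 4038 genes, or 23.6%, the share against which the counts of each gene list below are read. At least 4-fold differences were found for 486 higher and 466 lower genes (5.57% of all), and at least 16-fold differences for 86 higher and 49 lower genes. The macrophage and MDP arrays did not overlap for 7543 genes (44.1%), the share beside which separate arrays of any gene below are read. The median difference over all genes was -0.003 log2 units. Across all 45037 probe sets, the 3 macrophage arrays correlated with each other at 0.990 to 0.992 and the 3 MDP arrays at 0.969 to 0.980. Macrophage and MDP arrays correlated at 0.900 to 0.921. MDP pool 3 stood apart from MDP pools 1 and 2. Among the 1949 genes called higher in macrophages, MDP pool 3 held the highest MDP value for 1214 (62.3%), against 40.1% of all genes. Counts without it are given wherever they differ by over 1.5 times. Values are log2 intensities and differences are macrophages minus MDPs, so that 1 log2 unit is a 2-fold difference. In bulk samples, fewer cells of a type and less RNA per cell cannot be told apart, here and in every result that follows.

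Among the genes behind the sort, Itgam and Kit moved with the gates. Csf1r was higher in macrophages although both populations were gated on its protein, and Itgax went against its gate. Ly6a, for Sca1, and Il7r, for CD127, were not among the genes tested. Csf1r, the M-CSF receptor on which both populations were gated, read 9.70, 9.77 and 9.93 in macrophage pools 1, 2 and 3, against 7.40, 7.76 and 7.52 in MDP pools 1, 2 and 3. Itgam, the CD11b integrin chain, read 6.71, 7.12 and 6.79 in macrophages, against 2.93, 3.26 and 3.86 in MDPs. Kit, the CD117 receptor of stem cell factor, read 4.05, 3.92 and 4.36 in macrophages, against 7.50, 7.38 and 7.52 in MDPs. None of these 3 genes overlapped between the groups. Itgax, the CD11c integrin chain, read 8.15, 8.57 and 8.41 in macrophages, against 3.36, 4.25 and 3.94 in MDPs. Its RNA was 4.53 ± 0.30 log2 units higher (limma estimate ± SE, n = 3 pools each, adjusted p = 9.2e-08) in cells sorted as lacking the CD11c protein.

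Most monocyte genes were higher in macrophages than in MDPs, whereas several genes that define resident red pulp or marginal zone macrophages were not called. Of 14 measured genes associated with non-classical monocytes, 13 were called higher, with a median difference of 3.78. Of 10 genes associated with classical monocytes, 9 were higher, with a median of 2.95. Of 10 red pulp macrophage genes, 6 were higher, with a median of 1.09, and of 6 marginal zone macrophage genes, 4 were higher, with a median of 2.57. No member of these 4 lists was called lower. In the fit of only the 6 arrays, 5 marginal zone genes were called higher and 1 red pulp gene was called lower.

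Adgre4, an adhesion receptor related to F4/80, read 9.71, 10.20 and 10.12 in macrophage pools, against 3.92, 3.78 and 5.05 in MDP pools. Fabp4, a carrier of fatty acids, read 10.29, 10.11 and 9.99, against 4.09, 3.90 and 5.23. Nr4a1, the nuclear receptor on which Ly6C-low monocytes depend, read 8.82, 9.18 and 9.27, against 4.08, 4.29 and 4.18. For all 3 genes every macrophage pool lay over 4 log2 units above every MDP pool, with differences of 5.76 ± 0.33 for Adgre4, 5.73 ± 0.37 for Fabp4 and 4.91 ± 0.24 for Nr4a1 (adjusted p = 2.6e-08, 9.2e-08 and 7.3e-09). Treml4, a receptor of the TREM family, and Ace, angiotensin-converting enzyme, were higher by 4.51 ± 0.22 and 4.56 ± 0.28. Spn, the sialophorin CD43, was the member not called, at 7.02, 7.43 and 7.81 in macrophages against 7.14, 7.01 and 7.11 in MDPs.

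Among the classical monocyte genes, Ccr2, the receptor for CCL2, read 10.09, 10.28 and 10.00 in macrophages, against 7.51, 7.21 and 8.13 in MDPs. Fn1, fibronectin, read 11.22, 11.31 and 11.20, against 5.35, 5.73 and 9.11. Chil3, a chitinase-like protein, read 12.06, 11.91 and 11.99, against 4.20, 6.04 and 11.25. All 3 were called higher, but Fn1 and Chil3 stood high in MDP pool 3, and Chil3 lost its call in the fit of only the 6 arrays (adjusted p = 0.057). Ms4a4c was higher by 3.11 ± 0.34 and Vcan, the proteoglycan versican, by 4.46 ± 0.56. F13a1, the A chain of coagulation factor XIII, was the member not called: it read 11, 10.76 and 10.46 in macrophages, against 10.41, 10.52 and 10.55 in MDPs.

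Red pulp genes were mixed. Adgre1, the F4/80 antigen, read 7.82, 8.16 and 7.83 in macrophages, against 3.57, 4.09 and 5.61 in MDPs. Cd68, a lysosomal glycoprotein, read 9.88, 10.15 and 10.01, against 7.12, 6.53 and 7.39. Spic, the transcription factor that red pulp macrophages require, read 5.39, 5.53 and 5.43, against 4.03, 3.59 and 4.05. These 3 did not overlap between groups, and Spic rose by 1.56 ± 0.20 (adjusted p = 3.3e-05). Vcam1, an adhesion molecule of red pulp macrophages, read 4.07, 4.08 and 4.23, against 3.86, 3.83 and 4.79. Cd163, the haemoglobin scavenger receptor, read 6.03, 5.95 and 6.45, against 6.82, 6.77 and 6.97. Slc40a1, the iron exporter ferroportin, read 5.19, 5.26 and 5.63, against 4.01, 5.26 and 7.47. None of the last 3 was called (adjusted p = 0.96, 0.29 and 0.87), although Cd163 read lower in every macrophage pool than in any MDP pool. Cd5l, secreted by tissue macrophages, was not called either (adjusted p = 0.71), with MDP pool 3 at 8.05 above every macrophage pool, and became called at 0.00065 without that pool. Mertk, a receptor for dying cells, was called higher by 0.62 ± 0.21 (adjusted p = 0.045) and lost the call without macrophage pool 1 or 3 or MDP pool 1 or 2, with adjusted p up to 0.19.

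Of the marginal zone genes, Cd209a, a C-type lectin, read 8.57, 8.82 and 8.86 in macrophages, against 3.38, 3.44 and 3.36 in MDPs. Cd209a is also counted among the conventional dendritic cell genes below, so it does not mark marginal zone macrophages alone. Siglec1, the CD169 lectin, read 6.00, 7.38 and 7.06, against 3.33, 3.78 and 4.08, although another of its probe sets differed by only -0.02. Msr1, a class A scavenger receptor, was higher by 3.91 ± 0.32. Cd209b read 3.07, 2.97 and 2.82, against 3.40, 3.01 and 2.86, and Marco read 3.94, 4.02 and 4.48, against 3.49, 3.63 and 3.52. Cd209b, the SIGN-R1 lectin, and Marco, another class A scavenger receptor, are both defining genes of marginal zone macrophages and were not called (adjusted p = 0.68 and 0.12). Marco nonetheless read higher in every macrophage pool than in any MDP pool. The cells are called spleen macrophages below, as labelled.

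**Figure D1:**
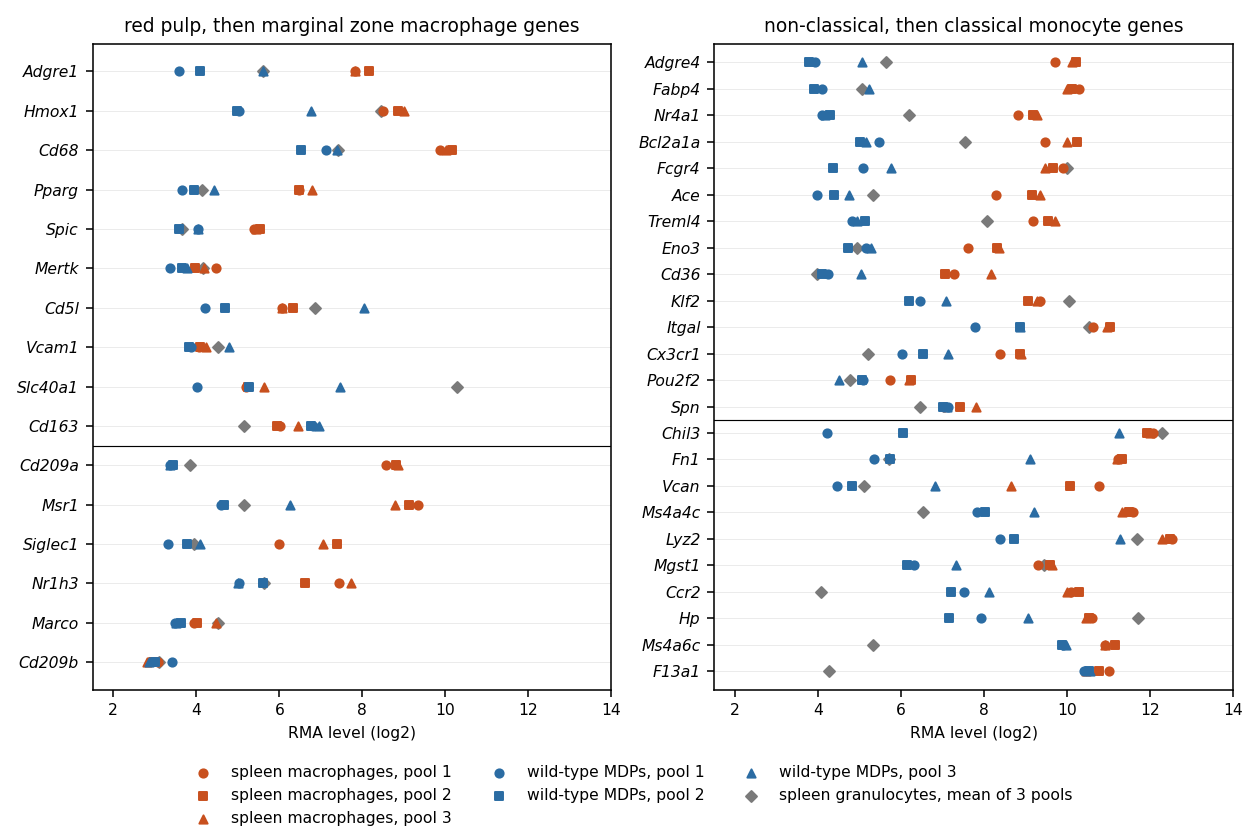
Log2 intensity of the measured red pulp, marginal zone, classical and non-classical monocyte genes in each spleen macrophage pool and each wild-type MDP pool, with the spleen granulocyte mean beside them. The non-classical monocyte genes Adgre4, Fabp4 and Nr4a1 separate the groups widely, whereas Cd163 and Marco separate them narrowly and Vcam1 and Cd209b overlap.

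The same genes were set against spleen granulocytes, which share the macrophage arrays with the comparison above and lie 31.2% of genes apart from macrophages at the same threshold (3142 higher and 2195 lower). Of the 14 non-classical monocyte genes, 11 were higher in macrophages than in granulocytes and none was lower. Of the 10 classical monocyte genes, 6 were higher and 1 was lower, and of the 10 red pulp genes, 4 were higher and 1 was lower. Ccr2 exceeded its granulocyte mean of 4.07 by 6.05, Fabp4 its mean of 5.06 by 5.07 and Cd209a its mean of 3.86 by 4.89 (adjusted p = 3.0e-10, 1.8e-07 and 1.6e-10). The 1 lower red pulp gene was Slc40a1, 4.92 log2 units below its granulocyte mean of 10.28. Of 10 neutrophil genes, 8 were lower in macrophages than in granulocytes, with a median difference of -6.24. The granulocyte arrays were not high in neutrophil genes alone. Of 9 NK-cell genes, 8 were lower in macrophages than in granulocytes (median -2.20), and of 9 B-cell genes, 4 were lower and 1 was higher. The source of these transcripts in the granulocyte arrays was not tested.

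The 15 largest rises ran from 5.41 to 6.60 log2 units, and MDP pool 3 held the highest MDP value in all 15. Cd74, the invariant chain that chaperones MHC class II, read 12.25, 12.32 and 12.12 in macrophages, against 4.52, 4.39 and 7.99 in MDPs. Slfn1, of the Schlafen family, read 10.66, 10.69 and 10.78, against 2.74, 3.62 and 6.19. Fgr, a Src-family kinase of myeloid cells, read 10.60, 10.83 and 10.72, against 3.74, 3.26 and 6.46. In these 3 genes the macrophage pools lay close together, while MDP pool 3 lay over 2 log2 units above both other MDP pools. Cd74 was 97.0-fold higher (6.60 ± 0.69, adjusted p = 6.4e-06), and its difference was 7.78 without MDP pool 3. Slfn5 was higher by 5.94 ± 0.55, and Nupr1, a stress-induced nuclear protein, by 5.81 ± 0.37. Hpgd, which inactivates prostaglandins, was higher by 5.63 ± 0.49, and S1pr5, a receptor for sphingosine-1-phosphate, by 5.46 ± 0.57. Klra2, a lectin receptor of the Ly49 family, read 9.46, 9.72 and 9.33, against 2.66, 2.44 and 4.72, and the size of its rise is not given because its MDP mean of 3.27 lay within the range of the lower quartiles of the arrays (3.18 to 3.42). The rest of the 15 were Adgre4, Fabp4, H2-Eb1, H2-Aa, Chil4, Cd300ld and Nabp1. Hpgd was also 4.67 above granulocytes (mean 4.49, adjusted p = 4.9e-06), whereas Slfn1 (mean 11.96), Fgr (mean 11.2) and Slfn5 (mean 9.50) were not called apart from granulocytes.

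The 15 largest falls ran from -4.94 to -7.31 log2 units and were led by granule proteases and progenitor genes. Ctsg, cathepsin G, read 4.22, 3.80 and 5.53 in macrophages, against 11.70, 11.74 and 12.06 in MDPs. Mpo, myeloperoxidase, read 5.82, 5.53 and 7.49, against 12.65, 12.70 and 12.64. Cd34, a surface sialomucin of stem and progenitor cells, read 2.80, 3.06 and 2.94, against 9.78, 9.89 and 9.25. The groups did not overlap in any of these genes, and macrophage pool 3 was the highest macrophage pool for Ctsg and Mpo. Ctsg differed by -7.31 ± 0.42, or 159-fold (adjusted p = 2.6e-08), and Mpo differed by -6.38 ± 0.50. Sox4, a transcription factor of progenitors, differed by -5.52 ± 0.28. Cst7, the cathepsin inhibitor cystatin F, differed by -5.39 ± 0.37. Myb, a transcription factor of progenitors, and Rapgef3, a cAMP-activated exchange factor for Rap GTPases, were also among the 15 (limma adjusted p = 7.6e-09 and 9.5e-11). Cnn3, an actin-binding calponin, Abhd14a, Igfbp4, Pclaf and Serpinf1 differed by -5.18, -5.15, -5.12, -4.97 and -4.94. Elane, Prtn3 and Ms4a3, all expressed in granulocyte and monocyte progenitors, complete the 15. Cd34, Myb and Rapgef3 averaged below 3 in macrophages, below the lower quartile of each array (3.18 to 3.42), so the size of their fall is not given and their place among the 15 rests on values as deposited.

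**Figure D2:**
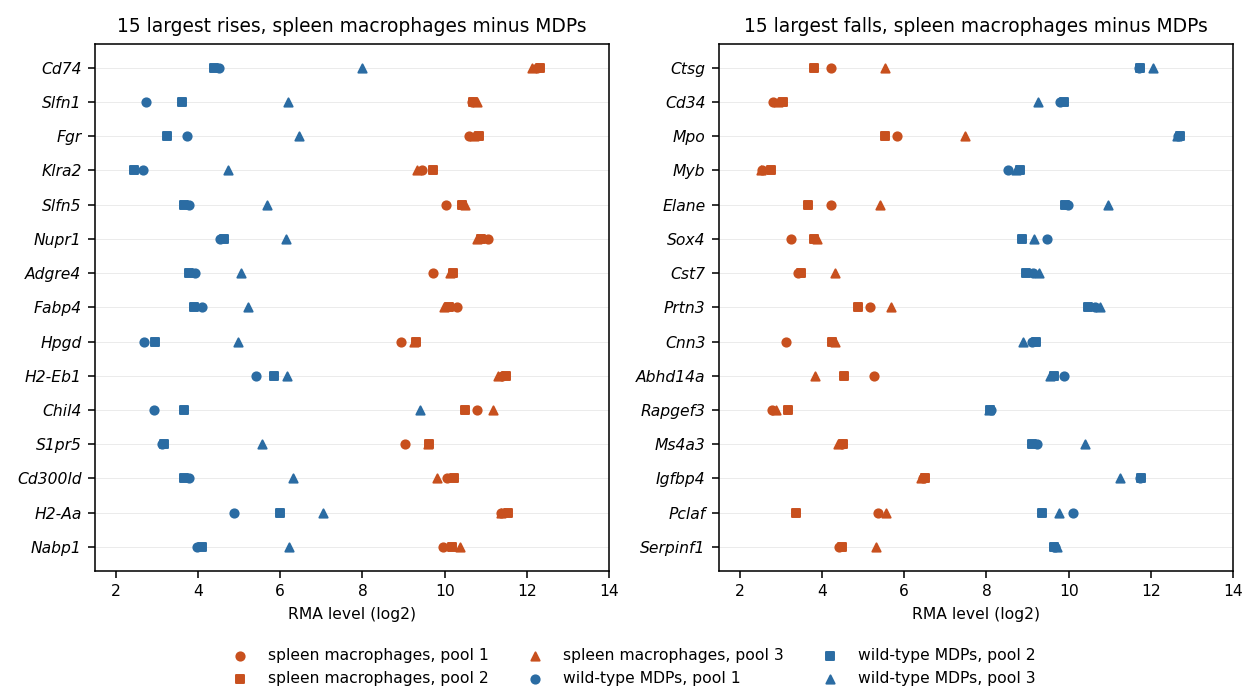
Log2 intensity of the 15 genes that rose most and the 15 that fell most, in each of the 3 spleen macrophage pools and each of the 3 wild-type MDP pools. Among the rises, MDP pool 3 lies above MDP pools 1 and 2 in all 15 genes, and no gene overlaps between the groups.

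Receptors for antibody, microbes and particles rose together. All 7 measured Fc receptor genes were called higher (median 2.80), as were 12 of 14 Toll-like receptor genes (median 1.83), 12 of 16 scavenger and phagocytic receptor genes (median 1.94) and 3 of 4 phagocyte oxidase genes (median 1.25). No member of these lists was called lower. Of 11 complement genes, 6 were higher, among them the sort gate gene Itgam, and 10 were higher without MDP pool 3. Against granulocytes, 4 of the 16 scavenger genes were higher in macrophages and 1 was lower (median -0.18). Of the 4 oxidase genes none was higher and 2 were lower, and of the 11 complement genes 1 was higher and 2 were lower. Fc receptor genes held 3 higher and none lower, and Toll-like receptor genes 7 higher and 3 lower.

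Fcgr1, the high-affinity receptor for IgG, read 9.80, 9.88 and 9.65 in macrophages, against 3.88, 4.13 and 5.79 in MDPs. Fcgr4 read 9.89, 9.65 and 9.47, against 5.08, 4.35 and 5.76. Fcgr2b, the inhibitory IgG receptor, read 10.54, 10.64 and 10.49, against 6.71, 6.80 and 8.29. None of the 3 overlapped, with differences of 5.17 ± 0.44, 4.61 ± 0.29 and 3.29 ± 0.43. Fcer1g, the signalling chain shared by activating Fc receptors, read 11.28, 11.35 and 11.27 in macrophages, against 9.12, 8.91 and 9.61 in MDPs. Fcgr1 was 5.45 log2 units above the granulocyte mean of 4.32, whereas Fcgr4 (granulocyte mean 10.00) was not called apart from granulocytes (adjusted p = 0.41).

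The Toll-like receptors with the largest measured rises were Tlr8 and Tlr7, both endosomal sensors of RNA, and Tlr1, a partner of TLR2. Tlr8 read 6.63, 6.88 and 6.64 in macrophages, against 2.96, 2.73 and 3.17 in MDPs. Tlr7 read 7.80, 7.61 and 7.96, against 4.98, 4.99 and 4.64. Tlr1 read 7.60, 7.32 and 7.02, against 3.68, 3.91 and 4.02. The groups did not overlap in these 3. Tlr4, the receptor for lipopolysaccharide, and Ly96, its MD-2 partner, were higher by 2.81 ± 0.59 and 2.66 ± 0.32. Ly86, the MD-1 protein, was not called, at 10.54, 10.88 and 10.85 in macrophages against 10.27, 9.88 and 10.09 in MDPs. Unc93b1, which carries endosomal receptors to their compartment, was the other member not called (adjusted p = 0.11).

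Among scavenger and phagocytic receptors, Pirb, an inhibitory immunoglobulin-like receptor, read 10.06, 9.88 and 9.64 in macrophages, against 4.26, 3.71 and 6.19 in MDPs. Cd300ld, a receptor of the CD300 family, read 10.06, 10.22 and 9.80, against 3.77, 3.66 and 6.30. Clec4n, the dectin-2 receptor for fungal mannan, read 7.65, 7.39 and 6.45, against 2.77, 3.26 and 3.30. The groups were separate in all 3 genes, and MDP pool 3 was the highest MDP pool in each. Mrc1, the mannose receptor, rose by 2.53 ± 0.57, and Cd36, which binds oxidised lipoproteins, by 3.04 ± 0.39. Cd163, Stab1, Timd4 and Marco were not called, and Stab1 and Timd4 read at most 3.80 and 4.19 in any of the 6 arrays. Among oxidase genes, Cybb, the catalytic subunit gp91phox, read 11.30, 11.64 and 11.62 in macrophages, against 7.04, 6.54 and 9.39 in MDPs, and Cyba, its p22phox partner, rose by 1.37 ± 0.27.

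Among complement genes, the receptors stood out. Itgb2, the shared CD18 chain, read 11.55, 11.71 and 11.67 in macrophages, against 6.06, 5.77 and 8.90 in MDPs. C5ar1, the receptor for the C5a fragment, read 10.36, 9.75 and 9.92, against 5.23, 3.81 and 7.62. Cfb, complement factor B, read 6.57, 6.58 and 6.81, against 4.96, 4.63 and 4.16. None of these overlapped, and MDP pool 3 was the highest MDP pool for Itgb2 and C5ar1. Itgb2 and C5ar1, like Pirb and Cd300ld above, were not called apart from granulocytes. Their granulocyte means were 11.9, 12.3, 10.7 and 11.5. C1qc read 6.74, 5.87 and 5.83 in macrophages, against 4.48, 3.99 and 7.30 in MDPs, and was not called (adjusted p = 0.39). C1qb was called higher (adjusted p = 0.0094) and missed the threshold without MDP pool 2 (adjusted p = 0.053).

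Promoter sequence was read for Cd300ld and Pirb because both rose by over 5 log2 units and because both hold GAGGAAGT, the core letters bound by PU.1, the transcription factor of myeloid cells encoded by Spi1. The 250 bases before the RefSeq gene start (GRCm38.p6) lie at chr11:114989887-114990136 on the minus strand for Cd300ld and at chr7:3720383-3720632 on the minus strand for Pirb. Capitals mark GAGGAAGT, which ends 136 bases before the start in Cd300ld and 113 bases before it in Pirb.
Cd300ld: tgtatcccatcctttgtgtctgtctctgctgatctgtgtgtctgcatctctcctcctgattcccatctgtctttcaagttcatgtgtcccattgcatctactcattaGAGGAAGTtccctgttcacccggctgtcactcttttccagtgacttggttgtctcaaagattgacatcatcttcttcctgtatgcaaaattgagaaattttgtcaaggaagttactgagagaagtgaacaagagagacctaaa
Pirb: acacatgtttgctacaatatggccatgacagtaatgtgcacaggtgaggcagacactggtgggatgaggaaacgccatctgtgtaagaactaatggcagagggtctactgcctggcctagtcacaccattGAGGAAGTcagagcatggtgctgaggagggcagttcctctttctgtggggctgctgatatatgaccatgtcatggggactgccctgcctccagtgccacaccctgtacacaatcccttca
Searched on both strands, GAGGAAGT was found in 2 of 12 scavenger receptor genes with a promoter sequence, 2 of 7 Fc receptor genes, 1 of 10 Toll-like receptor genes and none of 8 classical monocyte genes. It was also in 2 of 12 non-classical monocyte genes, 1 of 13 integrin and adhesion genes and 1 of 21 mitosis genes (4.76%). Of all 27018 genes with a promoter sequence, 2.79% held it. Among array genes, it was in 4.74% of those called higher, 2.69% of those called lower and 2.56% of those not called. These motifs and the motifs below were chosen after values were seen, and a match is a description of letters, not a binding site or a cause.

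Antigen presentation and lysosome genes rose. Of 13 genes of the MHC class II pathway, 10 were called higher and none lower (median 2.40). Of 21 lysosome genes, 18 were higher and 1 was lower (median 1.36). H2-Ab1, a class II chain, read 11.91, 11.92 and 11.97 in macrophages, against 6.70, 5.70 and 7.38 in MDPs. H2-Eb1 read 11.39, 11.49 and 11.30, against 5.4, 5.84 and 6.15, and H2-Aa read 11.36, 11.53 and 11.37, against 4.88, 5.99 and 7.04. These class II chains were over 40-fold higher in macrophages, at 40.6-fold, 48.4-fold and 43.6-fold. Ciita, the coactivator that switches on class II genes, rose less, by 1.60 ± 0.28, at 6.74, 5.97 and 5.75 in macrophages against 4.58, 4.75 and 4.32 in MDPs. H2-DMb1, a chain of the peptide-loading DM complex, rose by 2.98 ± 0.32, while H2-Oa and H2-Ob, of the DO complex, were not called (adjusted p = 0.32 and 0.49). Of the costimulatory genes, Cd40 rose by 2.40 ± 0.16 and Cd86 by 2.58 ± 0.26, and Cd80 was not called (adjusted p = 0.32). Against granulocytes 12 of the 13 were higher in macrophages and 1, Cd80, was lower.

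Several lysosomal proteases rose. Ctss, a cathepsin that trims the invariant chain, read 12.35, 12.44 and 12.32 in macrophages, against 9.68, 9.66 and 10.52 in MDPs. Ctsc, which activates granule proteases, read 11.03, 11.02 and 10.88, against 8.41, 8.02 and 9.30. Lgmn, the asparaginyl protease legumain, read 6.48, 6.30 and 6.31, against 3.05, 3.28 and 3.90. The groups did not overlap in any of these genes. Ctsh, Ctsa and Ctsb rose by 2.25, 2.32 and 1.77. Lamp1 and Lamp2, structural membrane proteins of the lysosome, rose by 1.21 ± 0.19 and 1.17 ± 0.20, and Tfeb, a transcription factor of lysosome genes, by 1.65 ± 0.24. Gla, alpha-galactosidase A, was the 1 member that fell, with 5.78, 5.45 and 5.72 in macrophages against 6.62, 6.69 and 7.34 in MDPs. Gusb and Ctsd were not called (adjusted p = 0.42 and 0.083).

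**Figure D3:**
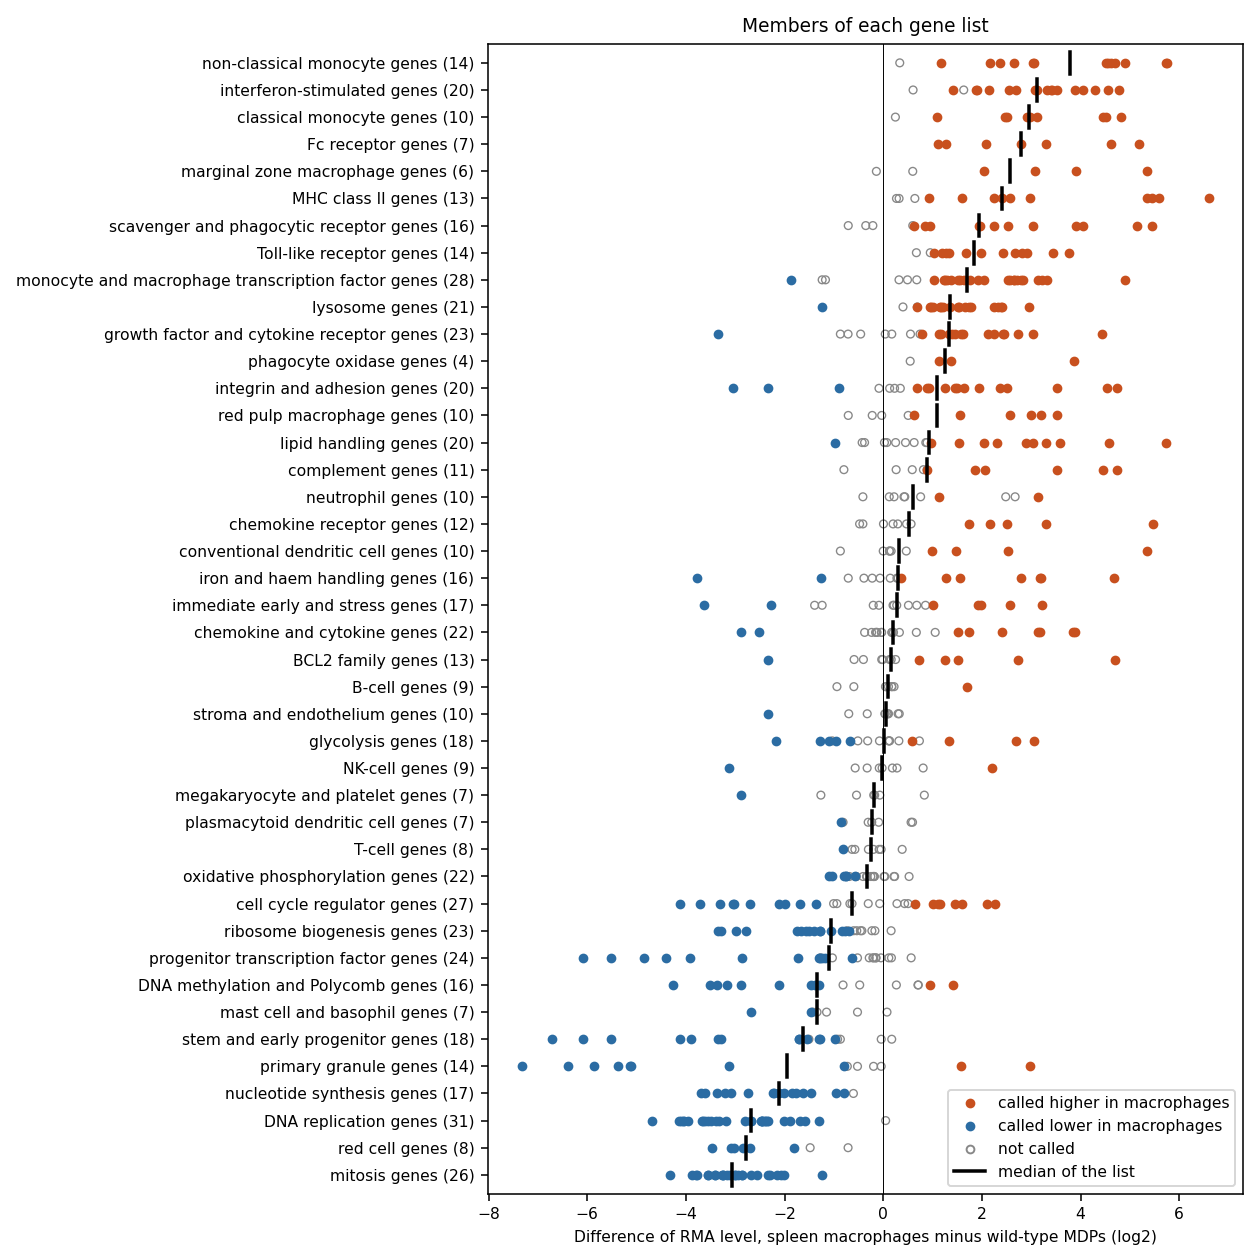
Differences of the measured members of 42 gene lists in log2 units, spleen macrophages minus wild-type MDPs, with each point a gene and the median of each list marked. The medians of the mitosis, DNA replication and nucleotide synthesis lists lie below 0 (-3.06, -2.68 and -2.12), and those of the Fc receptor and interferon-stimulated lists lie above it (2.80 and 3.11).

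Interferon-stimulated genes were higher in macrophages: 18 of 20 were called higher and none lower, with a median of 3.11. Oas3, an enzyme that makes the 2-5A signal on sensing double-stranded RNA, read 8.87, 9.33 and 9.31 in macrophages, against 4.46, 3.86 and 4.84 in MDPs. Rtp4 read 8.94, 9.44 and 9.16, against 4.82, 3.77 and 5.26. Irf7, the interferon regulatory factor that amplifies type I interferon, read 7.93, 8.21 and 8.07, against 4.47, 4.69 and 5.08. No overlap was seen, and macrophage pool 1 was the lowest macrophage pool in each. Its mean over the 20 genes was 7.86, against 8.37 and 8.27 in macrophage pools 2 and 3. Oas3 rose by 4.79 ± 0.33 (adjusted p = 1.4e-07), Oasl2 by 4.29 ± 0.46, Zbp1, a sensor of Z-form nucleic acid, by 3.89 ± 0.18, and Ifit3 by 3.52 ± 0.29. Gbp3 and Dhx58 were not called (adjusted p = 0.19 and 0.16). Against granulocytes, 6 of the 20 were higher in macrophages and 6 were lower, with a median of -0.02. Mx1, which restricts influenza virus, was higher than in granulocytes by 3.34, and Ifit1 was lower, with a difference of -1.84.

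The promoters of Oas3 and Ifit3 are printed because 7 of the 13 interferon-stimulated genes with a promoter sequence (53.8%) held the core of the interferon-stimulated response element, TTTC followed after any 2 bases by TTTC, on either strand. Over all 27018 genes with a promoter sequence the share was 3.46%. It was 5.18% of array genes called higher, 2.22% of those called lower and 2.92% of those not called. The 250 bases before the RefSeq start (GRCm38.p6) are chr5:120777660-120777909 on the minus strand for Oas3 and chr19:34583279-34583528 on the plus strand for Ifit3. Capitals mark the element, 66 to 75 bases before the start on the opposite strand in Oas3, and at 147 to 156 and 113 to 122 bases before it in Ifit3.
Oas3: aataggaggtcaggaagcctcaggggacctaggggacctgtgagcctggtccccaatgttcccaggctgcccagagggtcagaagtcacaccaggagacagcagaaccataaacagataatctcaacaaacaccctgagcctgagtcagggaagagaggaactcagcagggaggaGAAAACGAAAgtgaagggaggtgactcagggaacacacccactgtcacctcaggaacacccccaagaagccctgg
Ifit3: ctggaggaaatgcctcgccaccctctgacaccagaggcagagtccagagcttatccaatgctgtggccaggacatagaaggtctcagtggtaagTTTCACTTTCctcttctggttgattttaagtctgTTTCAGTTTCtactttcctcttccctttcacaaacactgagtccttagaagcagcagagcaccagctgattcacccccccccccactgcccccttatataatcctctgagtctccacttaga

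Secreted signals changed selectively. Of 22 chemokine and cytokine genes, 7 were higher and 2 were lower (median 0.19). Il1b, interleukin-1 beta, read 8.74, 8.87 and 8.14 in macrophages, against 5.11, 4.66 and 4.34 in MDPs. Il18, interleukin-18, read 7.23, 7.72 and 7.09, against 3.15, 3.22 and 4.11. Il1rn, the antagonist of the interleukin-1 receptor, read 6.29, 6.5 and 6.60, against 3.14, 3.30 and 3.39. All 3 members of the interleukin-1 family rose with no overlap. Ccl3, an attractant of leukocytes, fell, with 4.74, 4.38 and 5.26 in macrophages against 7.20, 7.09 and 7.64 in MDPs (difference of -2.51 ± 0.41, adjusted p = 0.00032). The other lower gene was Pf4, platelet factor 4, at 2.72, 2.58 and 2.73 against 2.82, 5.46 and 8.40. Its call (adjusted p = 0.024) was lost when any pool but MDP pool 1 was left out, with adjusted p up to 0.069. Tnf, Il6, Il10 and Ccl2 were not called and read at most 4.63 in any of the 6 arrays.

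Receptors for chemokines and growth factors rose more often than they fell. Of 12 chemokine and sphingosine-1-phosphate receptor genes, 5 were higher and none lower. Cx3cr1, the fractalkine receptor, read 8.37, 8.87 and 8.89 in macrophages, against 6.02, 6.52 and 7.12 in MDPs, and Cmklr1, the chemerin receptor, rose (adjusted p = 3.5e-07). Ccr1 was called higher (adjusted p = 0.017) and lost the call without macrophage pool 1 or 2 or MDP pool 1 or 2, with adjusted p up to 0.093. Of 23 growth factor and cytokine receptor genes, 15 were higher and 1, the sort gate gene Kit, was lower (median 1.32). Il13ra1, a chain of the interleukin-4 and interleukin-13 receptor, read 10.14, 9.96 and 10.08 in macrophages, against 4.93, 5.28 and 6.65 in MDPs. Il10ra, the interleukin-10 receptor chain, read 8.48, 8.73 and 8.72, against 5.73, 5.45 and 5.63. Both were separate between groups, and Tnfrsf1b, Ifngr1 and Tgfbr2 rose by 2.74, 2.46 and 2.42. Flt3, the receptor of progenitors and dendritic cells, was not called (adjusted p = 0.17), at 7.07, 7.39 and 7.90 in macrophages against 8.20, 8.51 and 8.26 in MDPs. Il6st, the gp130 chain, and Il3ra were not called either.

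Among 20 integrin and adhesion genes, 13 were higher and 3 were lower (median 1.09). The higher genes include the sort gate genes Itgam and Itgax. Besides Itgb2, Itgax and Itgam, Itgal, the CD11a chain of LFA-1, rose by 2.37 ± 0.25 and Itgb7 by 2.51 ± 0.34. Itga6, a laminin receptor chain, read 4.33, 4.22 and 4.35 in macrophages, against 7.14, 7.46 and 7.42 in MDPs. Pecam1, the CD31 molecule of endothelium and early myeloid cells, read 4.82, 5.52 and 5.16, against 7.69, 7.77 and 7.07. Icam2 was the third lower gene, at -0.90 ± 0.18. Itga6 had the largest fall of the 20 genes, at -3.04 ± 0.29, and did not overlap between groups.

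Transcription factor genes split by lineage role. Of 28 factors of monocytes and macrophages, 22 were higher and 1 was lower (median 1.71). Of 24 factors of progenitors, 12 were lower and none was higher (median -1.11), and 1 was higher without macrophage pool 1. Cebpb, a C/EBP factor of mature myeloid cells, read 10.97, 10.82 and 10.93 in macrophages, against 7.84, 7.42 and 8.98 in MDPs. Id2, an inhibitor of E proteins, read 8.15, 7.47 and 8.15, against 4.23, 4.38 and 5.73. Klf4, which Ly6C-high monocytes require, read 9.61, 9.96 and 10.11, against 6.57, 7.09 and 8.41. The groups did not overlap, and MDP pool 3 was nearest to macrophages each time. Spi1, encoding PU.1, rose less, by 1.25 ± 0.16, at 8.72, 8.69 and 8.99 in macrophages against 7.88, 7.30 and 7.46 in MDPs. Irf5 rose by 2.66 ± 0.19 and Bach1, a haem-sensing repressor, by 2.78 ± 0.28. Irf8, the factor that other MDPs of the series lack, was not called (adjusted p = 0.056), at 8.89, 9.41 and 9.21 against 10.27, 10.56 and 10.19, lower in every macrophage pool than in any MDP pool. Tfec was the 1 factor of this list that fell, with a difference of -1.87 ± 0.30.

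Of the progenitor factors, Myb read 2.54, 2.76 and 2.52 in macrophages, against 8.52, 8.81 and 8.71 in MDPs. Myc, a driver of growth and division, read 6.08, 6.33 and 6.61, against 10.20, 10.44 and 10.11. Gfi1, a repressor of progenitors and neutrophils, read 4.0, 3.98 and 3.18, against 7.65, 8.05 and 8.67. The groups did not overlap in any of these 3 genes. Erg, an ETS factor of stem cells, differed by -4.85 ± 0.45 and Satb1, a chromatin organiser, by -2.85 ± 0.20. Runx1, Etv6, Lyl1 and Ikzf1 were not called and read at least 8.57 in each of the 6 arrays. The related Mycn was not called, at 5.96, 5.95 and 6.16 in macrophages against 5.98, 6.08 and 5.67 in MDPs.

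**Figure D4:**
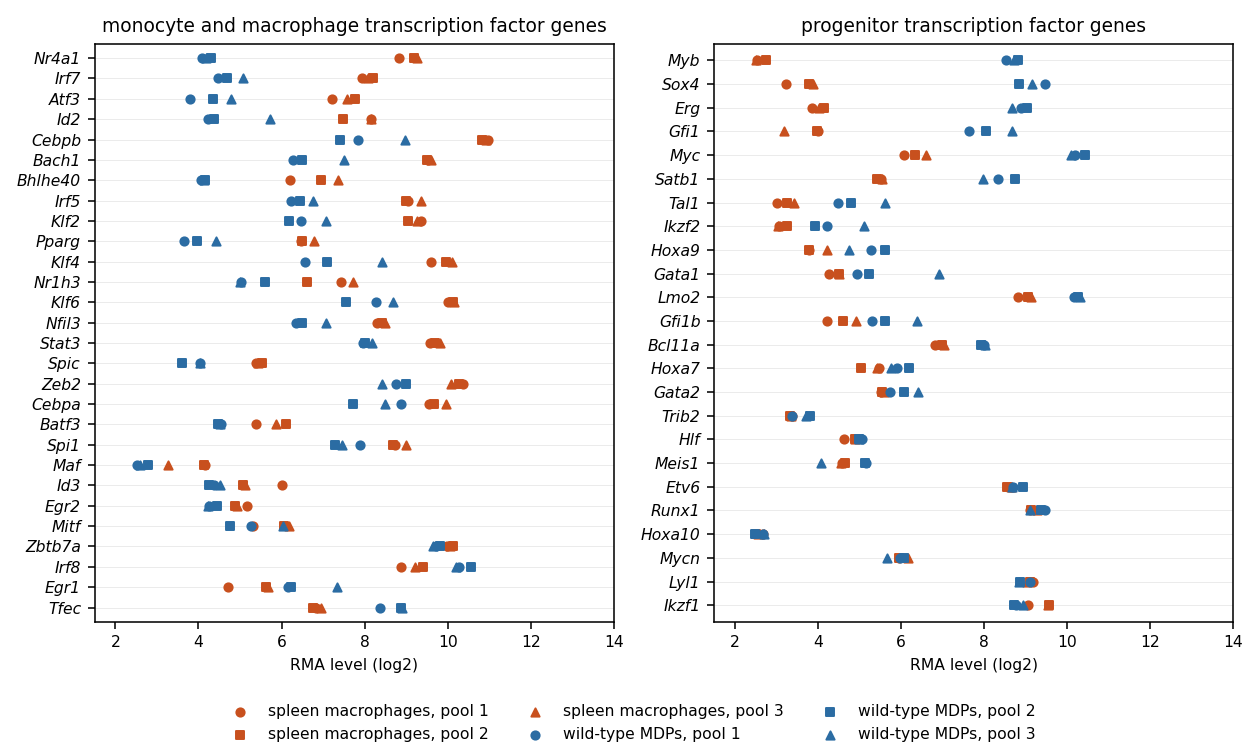
Log2 intensity of the monocyte and macrophage factors and of the progenitor factors in each spleen macrophage pool and each wild-type MDP pool. Myb, Sox4, Erg and Gfi1 lie far lower in macrophages, while Runx1, Etv6 and Lyl1 lie at similar levels in both groups.

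Stem cell and granule genes of MDPs were lower in macrophages. Of 18 stem and early progenitor genes, 13 were lower, among them the sort gate gene Kit, and none was higher (median -1.62). Cdk6, a kinase of the G1 phase, read 6.06, 6.23 and 6.35 in macrophages, against 10.31, 10.62 and 10.06 in MDPs. Adgrg1, an adhesion receptor of stem cells, read 4.79, 3.83 and 4.31, against 8.32, 8.21 and 8.08. Both were separate by over 3 log2 units. Of 14 genes listed as primary granule genes, 8 were lower and 2 were higher (median -1.96). The 8 include Igfbp4 and Ms4a3, which do not encode granule proteins. Elane, neutrophil elastase, read 4.21, 3.67 and 5.41 in macrophages, against 9.98, 9.92 and 10.96 in MDPs, and Prtn3, proteinase 3, read 5.17, 4.89 and 5.67, against 10.64, 10.47 and 10.76. The 2 that rose were lysozymes. Lyz2, the lysozyme of monocytes and macrophages, read 12.52, 12.48 and 12.29, against 8.38, 8.71 and 11.28, and Lyz1 rose by 1.58 ± 0.27. Srgn, the proteoglycan that packs granules, was not called and read at least 10.73 in each of the 6 arrays.

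Cell division genes were lower throughout. All 26 measured mitosis genes were called lower (median -3.06), as were 30 of 31 DNA replication genes (median -2.68) and 16 of 17 nucleotide synthesis genes (median -2.12). Mcm2, a subunit of the replicative helicase, read 4.56, 4.38 and 4.29 in macrophages, against 9.23, 8.87 and 9.16 in MDPs. Rrm2, a subunit of ribonucleotide reductase, read 5.4, 4.25 and 5.29, against 8.96, 8.83 and 9.24. Ung, the uracil-DNA glycosylase, read 5.75, 5.35 and 5.69, against 9.77, 9.82 and 9.62. These differed by -4.68 ± 0.33, -4.04 ± 0.51 and -4.14 ± 0.24, with no overlap. Pcna, the sliding clamp, fell least among the 30, at 9.63, 9.57 and 9.57 against 10.82, 10.88 and 10.97 (difference of -1.30 ± 0.31). Orc1, a subunit of the origin recognition complex, was the member not called (adjusted p = 0.94).

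In mitosis genes macrophage pool 2 was the lowest. Ccnb2, cyclin B2, read 4.77, 2.62 and 5.74 in macrophages, against 8.52, 8.61 and 8.95 in MDPs. Mki67, the Ki-67 antigen, read 9.15, 7.48 and 9.33, against 11.16, 11.25 and 11.19. Top2a, topoisomerase II alpha, read 5.91, 4.08 and 5.50, against 8.53, 8.67 and 8.95. Macrophage pool 2 held the lowest macrophage value in 25 of the 26 mitosis genes and in 18 of the 31 replication genes. The mean over the mitosis genes was 5.22, 4.40 and 5.44 in macrophage pools 1, 2 and 3, against 7.94, 7.84 and 8.25 in MDP pools. In all 26 genes the macrophage arrays lay below the MDP arrays. Ccnb2 differed by -4.32 ± 0.72 (adjusted p = 0.00037), Ccna2 by -3.88 ± 0.49 and Mad2l1, of the spindle checkpoint, by -3.78 ± 0.40.

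The 27 regulators of the cycle divided, with 8 higher and 10 lower. Among the higher genes were Btg1 and Ccng2, which restrain proliferation, by 2.27 ± 0.23 and 1.61 ± 0.27, Cdkn1a, the inhibitor p21, by 1.46 ± 0.29, and E2f2 by 2.11 ± 0.46. Among the lower genes were Cdk4 (7.41, 7.15 and 7.32 in macrophages against 10.36, 10.32 and 10.32 in MDPs), Ccnd2, Cdk6, Foxm1, E2f7 and E2f8. The count of higher regulators depended on single pools: it was 5 without macrophage pool 2 or 3 or MDP pool 1, and 4 without MDP pool 2. Cyclin D genes differed in direction, with Ccnd2 at -3.72 ± 0.19, Ccnd3 at 1.14 ± 0.34 and Ccnd1 not called (adjusted p = 0.43).

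Promoters of Cdc6 and Pola1, which load the helicase and start DNA strands, and of Ccnb2 and Prc1, which act in mitosis, are printed to show the letters that cell-cycle promoters carry. E2F letters (TTTGGCGC, TTTCCCGC, TTTGCCGC or TTTCGCGC, both strands) were in 7 of 26 replication genes with a promoter sequence (26.9%), in 1 of 21 mitosis genes (4.76%) and in 2.16% of all 27018 genes. The CCAAT box (CCAAT) was in 17 of 21 mitosis genes (81.0%), 16 of 26 replication genes (61.5%) and 37.5% of all genes. The CHR letters (TTTGAA) were in 8 of 21 mitosis genes (38.1%), 3 of 26 replication genes (11.5%) and 18.3% of all genes. Among array genes, E2F letters were in 6.07% of those called lower, 2.15% of those called higher and 2.76% of those not called. The CCAAT box was in 44.8% of those called lower, 40.4% of those called higher and 38.6% of those not called, and the CHR letters in 14.2%, 12.6% and 14.2%. The windows, 250 bases before the RefSeq start on GRCm38.p6, are chr11:98907901-98908150 (plus strand) for Cdc6, chrX:93632156-93632405 (minus strand) for Pola1, chr9:70421555-70421804 (minus strand) for Ccnb2 and chr7:80294226-80294475 (plus strand) for Prc1. Capitals mark the E2F letters in Cdc6 and Pola1, 131 to 138 bases before the start in both, and the CCAAT and TTTGAA letters in Ccnb2 and Prc1.
Cdc6: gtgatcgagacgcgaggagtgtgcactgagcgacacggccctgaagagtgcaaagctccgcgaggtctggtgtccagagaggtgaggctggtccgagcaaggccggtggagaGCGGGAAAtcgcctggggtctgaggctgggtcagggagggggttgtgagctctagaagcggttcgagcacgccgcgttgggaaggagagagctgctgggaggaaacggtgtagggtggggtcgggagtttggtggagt
Pola1: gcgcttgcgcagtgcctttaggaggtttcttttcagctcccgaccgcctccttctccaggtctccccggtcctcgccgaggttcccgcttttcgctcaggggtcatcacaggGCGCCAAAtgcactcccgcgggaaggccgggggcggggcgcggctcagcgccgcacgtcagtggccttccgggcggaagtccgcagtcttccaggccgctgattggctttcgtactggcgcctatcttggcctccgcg
Ccnb2: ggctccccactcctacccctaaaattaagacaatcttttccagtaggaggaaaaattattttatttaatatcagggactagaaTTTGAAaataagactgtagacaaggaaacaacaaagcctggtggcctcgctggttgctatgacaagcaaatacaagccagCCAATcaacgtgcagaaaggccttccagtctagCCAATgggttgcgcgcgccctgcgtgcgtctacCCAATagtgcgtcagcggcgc
Prc1: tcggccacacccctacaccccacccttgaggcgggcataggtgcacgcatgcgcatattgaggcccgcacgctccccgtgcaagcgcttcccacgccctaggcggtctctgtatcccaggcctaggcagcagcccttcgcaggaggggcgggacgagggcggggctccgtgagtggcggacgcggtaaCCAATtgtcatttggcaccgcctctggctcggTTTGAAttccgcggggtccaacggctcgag
Ccnb2 holds 3 CCAAT boxes within 87 bases of its start, and Prc1 holds 1. Cdc6 differed by -4.10 ± 0.29 and Pola1 by -3.67 ± 0.19, and Prc1 by -3.56 ± 0.54.

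Genes that build ribosomes were lower or not called. Of 23 ribosome biogenesis genes, 15 were lower and none was higher (median -1.06). Ncl, nucleolin, read 5.04, 5.33 and 5.55 in macrophages, against 8.97, 8.83 and 8.16 in MDPs. Dkc1, the pseudouridine synthase dyskerin, read 6.87, 6.43 and 6.72, against 9.99, 10.01 and 9.90. Wdr12 and Nop58 differed by -2.99 ± 0.24 and -2.79 ± 0.18. The nucleolar genes thus spread from -3.35 for Ncl to 0.16 for Pes1, which was not called. Against granulocytes, 17 of the 23 were higher in macrophages and 1 was lower. Of the nucleotide genes, Dut, which removes dUTP, differed by -3.69 ± 0.36, Pfas, of purine synthesis, by -3.61 ± 0.24 and Cad, of pyrimidine synthesis, by -3.37 ± 0.23.

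Mitochondrial genes were called at a share near that of all genes. Of 22 oxidative phosphorylation genes, 6 were lower and none was higher (median -0.33), a share of 27.3% beside 23.6% of all genes. The count was 3 without macrophage pool 3 and 3 without MDP pool 3. Ndufv1, a subunit of complex I, read 8.90, 9.06 and 9.01 in macrophages, against 9.99, 9.99 and 10.28 in MDPs, a difference of -1.10 ± 0.22. Against granulocytes 19 of the 22 were higher in macrophages and none was lower. Of 18 glycolysis genes, 4 were higher and 5 lower, and isoforms differed in direction. Slc2a3, the glucose transporter GLUT3, read 4.90, 5.00 and 5.29 in macrophages, against 6.65, 7.34 and 7.72 in MDPs. Eno3, an enolase, read 7.62, 8.31 and 8.37, against 5.14, 4.73 and 5.27, and Slc16a3, the lactate exporter MCT4, rose by 2.69 ± 0.48. Slc2a1, the transporter GLUT1, was called higher by 1.33 (adjusted p = 0.017) and missed the threshold without MDP pool 1 (adjusted p = 0.056).

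Of 20 lipid handling genes, 10 were higher and 1 was lower (median 0.93). Apoc2, the activator of lipoprotein lipase, read 9.58, 9.86 and 9.74 in macrophages, against 5.03, 4.35 and 6.08 in MDPs. Lpl, lipoprotein lipase itself, read 7.39, 8.24 and 8.48, against 3.41, 3.77 and 6.17. Apoe, a carrier of cholesterol, read 7.70, 7.32 and 7.85, against 4.30, 3.93 and 4.77. The groups were separate in all 3, and Fabp5 was the 1 lower gene, at -0.98 ± 0.19, while its relative Fabp4 rose by 5.73. Cholesterol synthesis genes Sqle, Idi1, Fdft1 and Hmgcs1 were not called.

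Of 16 iron and haem genes, 7 were higher and 2 were lower. Slc11a1, the NRAMP1 metal transporter of phagosomes, read 9.09, 8.97 and 8.89 in macrophages, against 3.77, 3.98 and 5.19 in MDPs. Hmox1, which breaks down haem, read 8.50, 8.86 and 9.0, against 5.04, 4.98 and 6.76. Tfrc, the transferrin receptor, read 4.90, 5.10 and 4.72, against 8.46, 8.34 and 9.26. Slc11a1 and Hmox1 rose by 4.67 ± 0.31 and 3.19 ± 0.38, and Tfrc fell, with a difference of -3.78 ± 0.36. Steap3, an iron reductase, was the other lower gene (adjusted p = 0.026), and the count of lower genes was 1 when any pool but MDP pool 1 was left out. Hfe, which limits iron uptake, rose by 3.18 ± 0.40 and was 4.48 above granulocytes. Slc11a1 and Hmox1 were not called apart from granulocytes (limma adjusted p = 0.30 and 0.52). Of the 16 genes, 5 were higher in macrophages than in granulocytes and 2 were lower (median 0.28).

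DNA methylation and Polycomb genes were mostly lower in macrophages. Of 16 DNA methylation and Polycomb genes, 9 were lower and 2 were higher (median -1.34). Uhrf1, which guides maintenance methylation, read 5.01, 4.65 and 5.74 in macrophages, against 9.39, 9.33 and 9.49 in MDPs. Dnmt3b, a de novo methyltransferase, read 4.37, 4.67 and 4.59, against 8.03, 8.03 and 7.70, and Ezh2, the Polycomb methyltransferase, read 6.01, 5.90 and 5.76, against 8.45, 8.79 and 9.05. All were separate between groups. Tet2, a demethylating dioxygenase, rose by 1.41 ± 0.22 and Eed by 0.96 ± 0.22, while Dnmt3a was not called (adjusted p = 0.057).

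Survival genes differed in direction. Of 13 BCL2 family genes, 5 were higher and 1 was lower. Bcl2, the founding survival protein, read 8.35, 8.67 and 8.89 in macrophages, against 11.03, 11.23 and 10.65 in MDPs. Bcl2a1a, an A1 survival gene with near-identical copies whose probes may cross-hybridise, read 9.47, 10.25 and 9.99, against 5.46, 5.01 and 5.16. Mcl1 rose by 1.52 ± 0.19 and Pmaip1, the death-promoting NOXA, by 2.73 ± 0.46. Bcl2 was thus lower and the survival genes Bcl2a1a and Mcl1 were higher in every macrophage pool than in any MDP pool. Of 17 immediate early and stress genes, 5 were higher and 2 were lower. Fosb read 4.04, 3.60 and 3.97 in macrophages, against 7.76, 6.45 and 8.33 in MDPs, and Jun read 7.87, 8.09 and 8.10, against 10.35, 10.22 and 10.35. Atf3 and Nfkbia, the inhibitor of NF-kappaB, rose by 3.21 ± 0.40 and 2.57 ± 0.28.

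Several marker lists of other cell types stood highest in MDP pool 3. Red cell genes were lower in macrophages, 6 of 8 with a median of -2.77, and 4 of 8 without MDP pool 3 with a median of -1.73. Their mean was 5.14, 4.71 and 4.99 in macrophage pools, against 6.26, 6.59 and 9.17 in MDP pools. Car2, carbonic anhydrase 2, read 4.87, 5.27 and 4.93, against 6.30, 7.98 and 10.05, while Hba-a1, alpha-globin, was called lower at adjusted p = 0.031 and lost the call without any macrophage pool or without MDP pool 3, with adjusted p up to 0.14. Of 10 neutrophil genes, 2 were higher, and 6 without MDP pool 3. Their mean was 7.87, 6.30 and 6.89 in macrophage pools, against 4.84, 4.59 and 8.34 in MDP pools. S100a8, a calcium-binding protein of neutrophils, read 10.78, 8.69 and 9.70, against 6.22, 3.62 and 11.87, and was not called (adjusted p = 0.24). MDP pool 3 exceeded every macrophage pool in S100a8. The part of these cells in the other results was not tested.

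Mast cell and basophil genes held 2 lower of 7, and 1 without MDP pool 3 or without any macrophage pool. Their mean was 4.15, 3.98 and 3.92 in macrophages, against 4.46, 4.57 and 6.67 in MDPs. Mcpt8, a basophil protease, read 4.51, 4.17 and 4.39, against 6.64, 6.11 and 8.34, and was lower in macrophages than in each MDP pool. Of 7 megakaryocyte genes, 1 was lower (Pf4): 3 were lower without MDP pool 1 and none when any other pool was left out, and 1 was higher without MDP pool 3. Of 9 NK-cell genes, Klrd1 was higher and Nkg7 lower (2 were higher without MDP pool 3), and Nkg7 read 4.80, 4.05 and 4.25 in macrophages, against 7.06, 6.86 and 8.56 in MDPs. Of 9 B-cell genes, 1 was higher (Cd22), with list means of 4.10, 4.17 and 4.25 against 3.96, 3.92 and 4.34. Of 8 T-cell genes, 1 was lower: Cd28 (adjusted p = 0.026), whose call was lost when any pool but MDP pool 1 was left out, with adjusted p up to 0.11. Without MDP pool 1, 2 T-cell genes were lower. Of 10 conventional dendritic cell genes, 4 were higher, with Clec10a, a C-type lectin, at 2.53 ± 0.34 beside Cd209a. The other higher members were Btla, at 1.47 ± 0.39, and Zbtb46, at 0.99 ± 0.31 (limma adjusted p = 0.011 and 0.029). Zbtb46 lost its call without macrophage pool 2 or MDP pool 1 or 3, with adjusted p up to 0.14. Xcr1, the defining receptor of cross-presenting dendritic cells, read 3.15, 3.00 and 3.18, against 3.19, 3.06 and 3.09. Of 10 stroma and endothelium genes, Pecam1 alone was lower and none was higher, and Col1a1, Col3a1 and Lum read at most 3.42 in any of the 6 arrays.

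**Figure D5:**
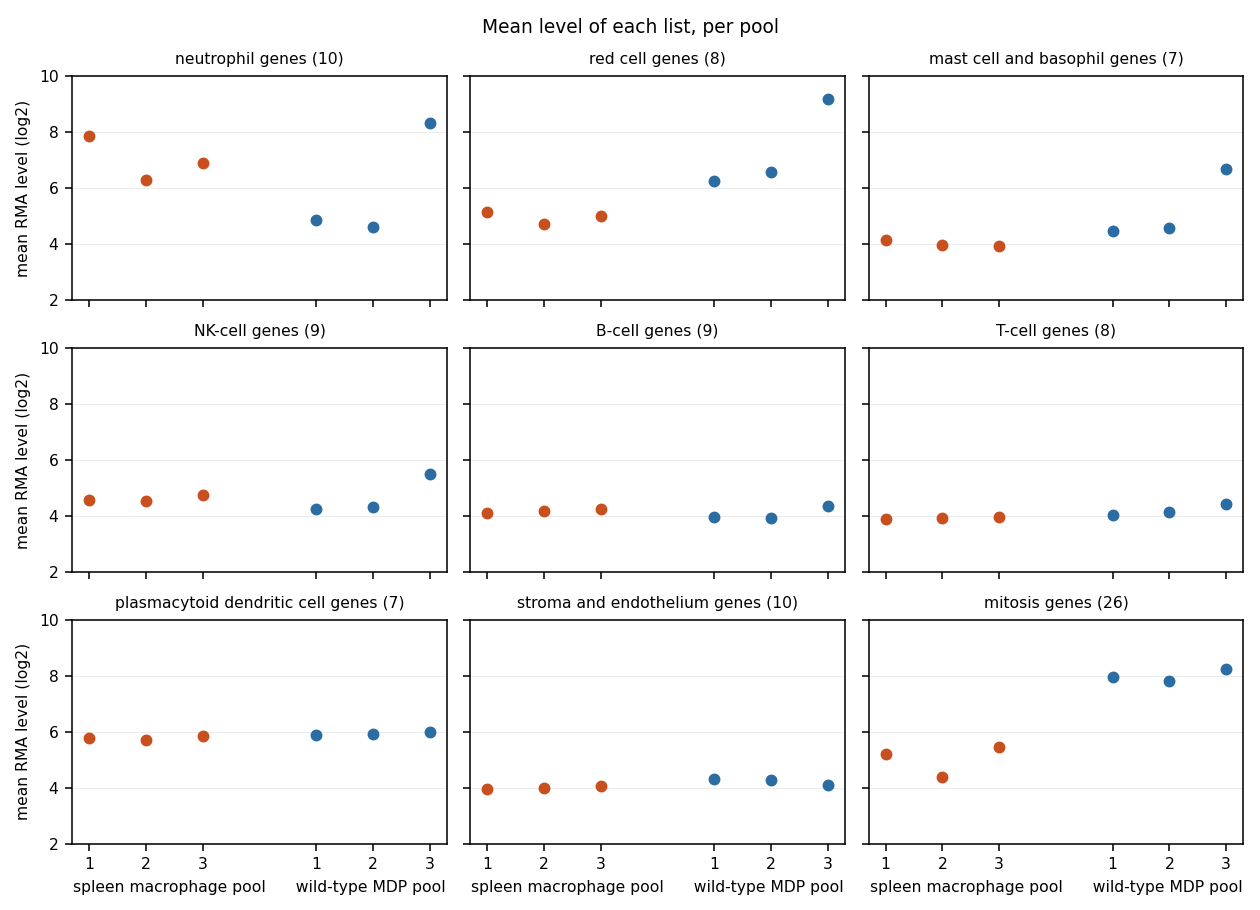
Mean log2 intensity of 9 gene lists in each spleen macrophage pool and each wild-type MDP pool, with 1 point per pool. MDP pool 3 stands above MDP pools 1 and 2 in the red cell list (9.17, against 6.26 and 6.59) and the neutrophil list (8.34, against 4.84 and 4.59), and macrophage pool 2 is lowest in the mitosis list (4.40).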

How the data were processed

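Total RNA of sorted cells was hybridised to Affymetrix mouse arrays. The deposited values are log2 intensities, made by the authors with RMA in Affymetrix Expression Console, per the submitters' processing notes. RMA subtracts background, quantile-normalises and summarises probes, so equal overall distributions are imposed on arrays, and the sources used here do not give which arrays were normalised together. Of 45037 probe sets, 28898 named 1 gene symbol, 551 several and 15588 none. The 17097 genes were each represented by their brightest probe set, by its mean over 17 arrays. Symbols were matched to the RefSeq GRCm38.p6 table for 28689 probe sets. Array medians were 4.33 to 4.48 and lower quartiles 3.18 to 3.42. Precision is limited by the 3 arrays in each group.

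A limma 3.58.1 model (R 4.3.3) with a mean per group was fitted to all 17 arrays of 6 groups with 11 residual degrees of freedom, and p-values were adjusted over all genes by the Benjamini-Hochberg method. Differences are given ± SE. Genes with an adjusted p under 0.05 are called higher or lower. The series' design text calls pools biological replicates. Whether mice were shared between pools is not stated. The p-values and SEs rest on the spread between pools within all 6 groups, not within the 2 compared groups alone. Cd74 had an SD of 2.05 over MDP pools and 0.10 over macrophage pools. Its limma adjusted p was 6.4e-06 with all 17 arrays and 0.0012 with only the 6 arrays. Where a group averaged below 3.42, the highest lower quartile of an array, neither a fold nor a log2 difference of that gene is given, although ranks, counts, medians and plotted differences use all values as deposited.

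Members and gene lists were chosen with earlier results of these data known. Of 44 lists, 592 genes were measured. Named were the sort gate genes, the 15 largest rises and falls without predicted, RIKEN or clone-named genes, the called members of the macrophage and monocyte lists, and up to 6 called members of each other list. Other named genes, such as Cd163, Slc40a1, Vcam1, Cd5l, Cd209b, Marco, Spn and F13a1, further list members and those not called, were chosen after their values were seen. The alternatives were other sets of arrays, leaving out each pool, a pool-number block, other probe set choices, a filter on dim genes, other normalisations and other variance models.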

Additional observations from a re-analysis of the deposited data

How the results depend on the processing

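Of the 4038 genes called, 3211 to 3403 were also called when 1 of the 6 pools was left out, and the count of called genes was then 3232 to 3563 (1572 to 1837 higher, 1660 to 1924 lower, 2525 to 2700 at least 2-fold). The call count was 5250 with only the 6 arrays, 5382 after quantile normalisation of those 6 again, 5407 with array weights per group, 4298 with the mean of a gene's probe sets, 4050 with the probe set highest over the 6 arrays, 3843 of 9188 genes above the median level, 3963 after centring on array medians and 3976 with a trended robust prior. Testing every probe set on its own raised the counts by over 1.5 times, to 6413 called, 3149 higher, 3264 lower and 4460 at least 2-fold, because 28898 probe sets are tested there in place of 17097 genes. Among genes called in both fits, no sign changed in the 16 alternatives that test genes, except for 1 gene under the mean of probe sets. Pool numbers did not pair the arrays: deviations of same-numbered pools correlated at -0.017, -0.024 and 0.027. With the pool number as a replicate block 4027 genes were called over 17 arrays and 4956 over the 6 arrays. Of 211 named genes, 209 were called. Between 0 and 11 of these lost the call under any alternative, and 15 lost it without 1 pool. The filter on dim genes kept 203 of the 211 named genes. The 3 pools in each group, dim genes near the lower quartile and the join of tissue with cell type limit every comparison.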

Other observations

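Of 1313 genes with at least 2 called probe sets, 10 had called probe sets of opposite sign. Idh2, the mitochondrial isocitrate dehydrogenase, averaged 7.04 in spleen macrophages and 9.66 in wild-type MDPs on one probe set (difference of -2.62 ± 0.19, limma adjusted p = 2.6e-07). On another it averaged 10.6 in macrophages and 9.42 in MDPs (1.19 ± 0.25, adjusted p = 0.0024). Cmss1 differed by -3.59 and -2.27 on 2 of its probe sets and by 1.58 on the third. The others were Scyl3, Cdk5rap2, Phip, Pgm3, Purb, Exoc4, Naif1 and Marchf5. Some genes named above had a probe set with little difference beside the brightest one. Across probe sets, Siglec1 differed by -0.02 to 3.08, Cebpb by 0.06 to 2.83 and Tgfbr2 by -0.02 to 2.42. Wide ranges were also seen for Fabp4 (0.82 to 5.73), Vcan (0.49 to 5.48) and Chil4 (0.53 to 5.48). Id2 ranged from 0.60 to 3.14, Cd36 from 0.54 to 3.04 and Ccng2 from 0.22 to 1.61. Slc2a3 differed by -2.17 to 0.02 and Top2a by -3.55 to 0.15, and Rapgef3 also had a probe set with little difference. The cause was not tested.

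Sex-linked genes varied among pools of the same group. Xist, expressed from the inactive X chromosome, read 5.01, 9.51 and 10.4 in macrophage pools 1, 2 and 3, against 11.8, 11.1 and 10.3 in MDP pools. Eif2s3y, a Y-linked gene, read 8.68, 7.98 and 6.60 in macrophage pools, against 4.96, 5.09 and 7.13 in MDP pools. None of the 4 sex-linked genes measured was called, although Xist differed by -2.75 and Eif2s3y by 2.03 between the group means. Another Eif2s3y probe set differed by -0.34. Whether the mix of sexes differed between the groups was not tested.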
